A study of Mus musculus with 10 samples.

Results

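NIH3T3 cells, an established line of mouse fibroblasts, were compared in 2 samples that were both at 38 °C but had been there for different times. The first was taken 9 h after cells kept for 16 h at 33 °C were moved to 38 °C. The second was taken at the end of 16 h at 38 °C, just before a move to 33 °C (its 0 h sample). They were chosen by their labels, and are 2 of the 10 samples of the series, 1 from each of its 2 temperature courses. Reference samples were the start of the warming course (16 h at 33 °C) and, for the same comparison of times at the other temperature, the cells 9 h after the move from 38 °C to 33 °C. All were wild-type cells, seeded and held for 4 h at 37 °C before the 16 h incubation, so the 9 h samples were 29 h from seeding and the 0 h samples 20 h. Time at the temperature, the move itself and hours in culture cannot be told apart.

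Each sample has 2 columns in the deposited tables, named by numbered series that the labels do not explain. The 9 h sample at 38 °C has series 2 and 13, the 16 h sample series 5 and 11. Series 2 was paired with series 5, and 13 with 11, and values are given in that order (pair 2/5, then pair 13/11). The labels do not say whether the columns are separate cultures, and a group is 1 sample, so no test was made and no p-value is given. The spread shown is that between the 2 columns. Since series 2 and 13 lie only in the warming course and 5 and 11 only in the cooling course, series and course cannot be told apart either.

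Mammalian fibroblasts respond to a few degrees of warming or cooling within the range of body temperature. Warming engages heat shock factor 1, which induces chaperone genes, while mild cold raises the RNA-binding proteins CIRBP and RBM3, in the case of Cirbp through more efficient splicing of its transcript. Temperature also sets the phase of the circadian oscillator in fibroblasts, a loop in which CLOCK and BMAL1 (gene Arntl) drive genes of the Per, Cry, Rev-erb and PAR-bZIP families through E-box motifs, and the Rev-erb proteins repress Arntl and Nfil3. The comparison asked which genes had reached their 16 h level at 38 °C after 9 h, which had passed it and which still stood at their 33 °C level.

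The columns hold 22403625 to 48004854 estimated exon reads and 15313374 to 25233405 intron reads in the 8 columns used of each kind. All 14 fibroblast markers were detected, with summed exon levels of 8720 and 10200 RPKM (reads per kilobase of exon scaled to library size, computed here) at 9 h and 7130 and 7270 RPKM at 16 h. Of 10 epithelial markers 1 passed the filter on low values (Krt14), and of 10 endothelial and 10 neuronal markers none did. Of 10 macrophage and leukocyte markers 3 passed, and of 10 adipocyte and 10 skeletal muscle markers 1 each. Epcam, Krt5, Cd3e, Myod1 and Adipoq were among the markers at 0 in all 8 columns used. The summed epithelial markers were 21 and 38.6 RPKM at 9 h against 12.0 and 24.4 RPKM at 16 h, and their part in the results was not tested. In bulk RNA, fewer cells of a kind and less RNA per cell cannot be told apart.

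Few genes differed between 9 h and 16 h at 38 °C in both pairs. Of 10194 genes with a mean exon level of at least 1.0 RPKM, 24 (0.235%) differed at least 2-fold in the same direction in both, 7 higher at 9 h (0.0687%) and 17 lower (0.167%). That split did not hold under other choices: it was 7 higher and 7 lower with the pairs crossed or with protein-coding genes only, 5 and 5 among genes with a mean of at least 5 RPKM, 61 and 44 with the columns of a sample summed, and 346 and 181 in pair 13/11 alone. By the same rule 243 genes (2.38%) differed between 38 and 33 °C at 16 h, a comparison of the starts of the 2 courses. Between 9 h and 16 h at 33 °C 110 (1.08%) differed. Within 1.5-fold in both pairs were 7784 genes (76.4%). In pair 2/5 alone 157 genes (1.54%) passed 2-fold, and in pair 13/11 alone 527 (5.17%). Across genes the log2 differences of the 2 pairs correlated at -0.09, a description over genes that are not independent, against 0.36 for the difference between temperatures. The 2 pairs thus gave mostly different genes, and the 24 are those past the limit in both. Of the 24, 14 were protein-coding, and 6 still passed with the pairs crossed (2 with 11, 13 with 5): Lars2, Nr1d1, Dbp, Ptx3, Gm22360 and Gm11508.

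**Figure D1:**
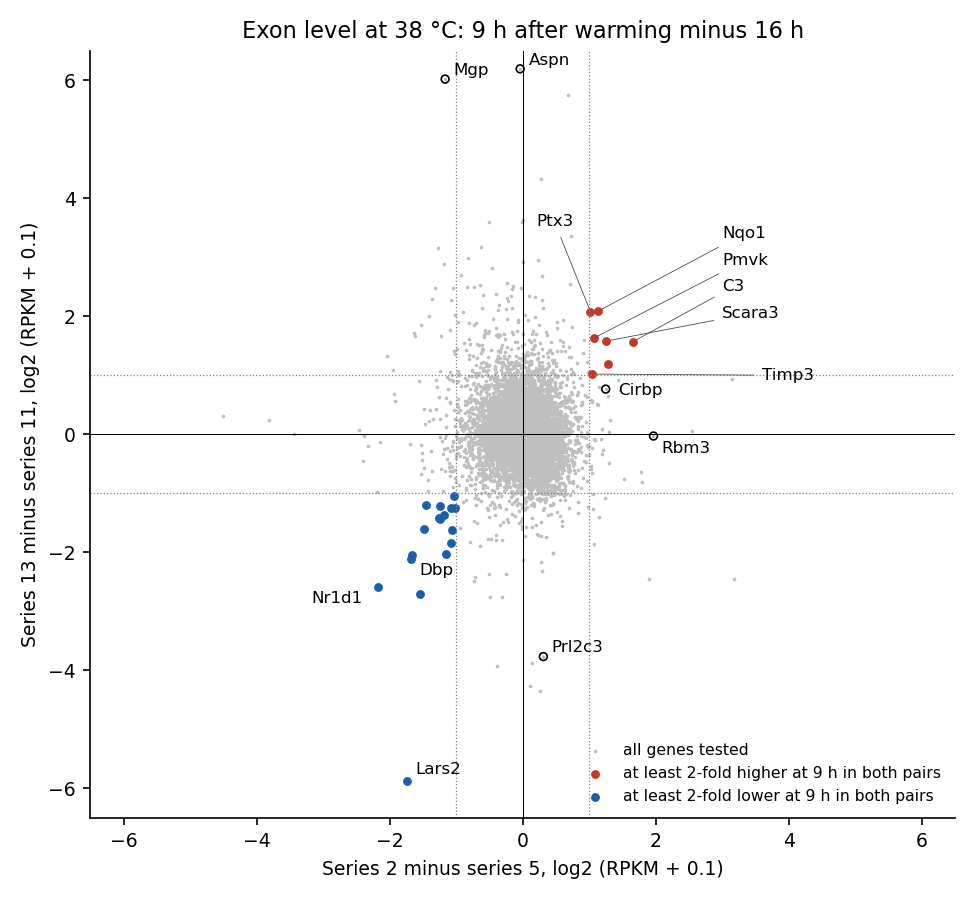
Log2 difference in exon RPKM between 9 h and 16 h at 38 °C for the 10194 genes, pair 2/5 on the x axis and pair 13/11 on the y axis, with the 24 genes past 2-fold in both pairs coloured. The cloud is wider along y (SD across genes 0.53) than along x (0.35), and genes such as Mgp and Aspn lie far out in pair 13/11 only.

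Genes that differ between the temperatures at 16 h, called temperature genes here, had mostly moved towards the 16 h level. How far short of it they stood depended on how the genes were chosen. Temperature and course cannot be told apart in that choice. Of the 243 temperature genes, 65 were within 1.5-fold of the 16 h level in both pairs at 9 h (called reached below), 32 of the 92 higher at 38 °C (0.902% of all tested) and 33 of the 151 lower (1.48%). With columns scaled by their exon totals in place of TMM factors, the temperature genes were 123 higher and 113 lower, of which 48 and 21 had reached. Another 15 were still at least 2-fold on the 33 °C side in both pairs, 10 of them higher and 5 lower at 38 °C (10 and 3 with total scaling), and 5 of the 15 were within 1.5-fold of the 33 °C level. No gene was 2-fold past the 16 h level in both pairs, a count that the choice of genes by the same 16 h columns holds down. The other 163 lay in between or differed between pairs. The median gene had covered 59.4% of the log2 distance between the 2 temperatures (quartiles 45.6% to 76.8%), 70.7% by pair 2/5 and 50.2% by pair 13/11.

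These counts use the same 16 h columns at 38 °C to choose the genes and to place them, which pulls the 9 h level towards the 33 °C side. The same 16 h columns at 33 °C also chose the genes and are the start from which the move was measured. That pulls the share of the distance covered upwards. When genes were chosen in 1 pair and read in the other, which shares no column with it, the shortfall was small. For genes chosen in pair 2/5 as higher at 38 °C (611), the median in pair 13/11 was a log2 difference of 0.42 between the temperatures at 16 h and 0.41 after 9 h of warming. For the 464 chosen as lower the medians were -0.61 and -0.59. Chosen in 13/11 and read in 2/5, the higher genes (258) had 0.66 at 16 h and 0.46 after 9 h, and the lower genes (566) -0.50 and -0.51. Read this way, the typical gene lower at 38 °C stood at its 16 h level after 9 h in both readings, and the typical higher gene in 1 of the 2. Of the 1075 genes chosen in pair 2/5, 58 were 2-fold past the 16 h level in pair 13/11, beside 89 that were 2-fold short. Of the 824 chosen in 13/11, 31 were past and 38 short in pair 2/5.

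**Figure D2:**
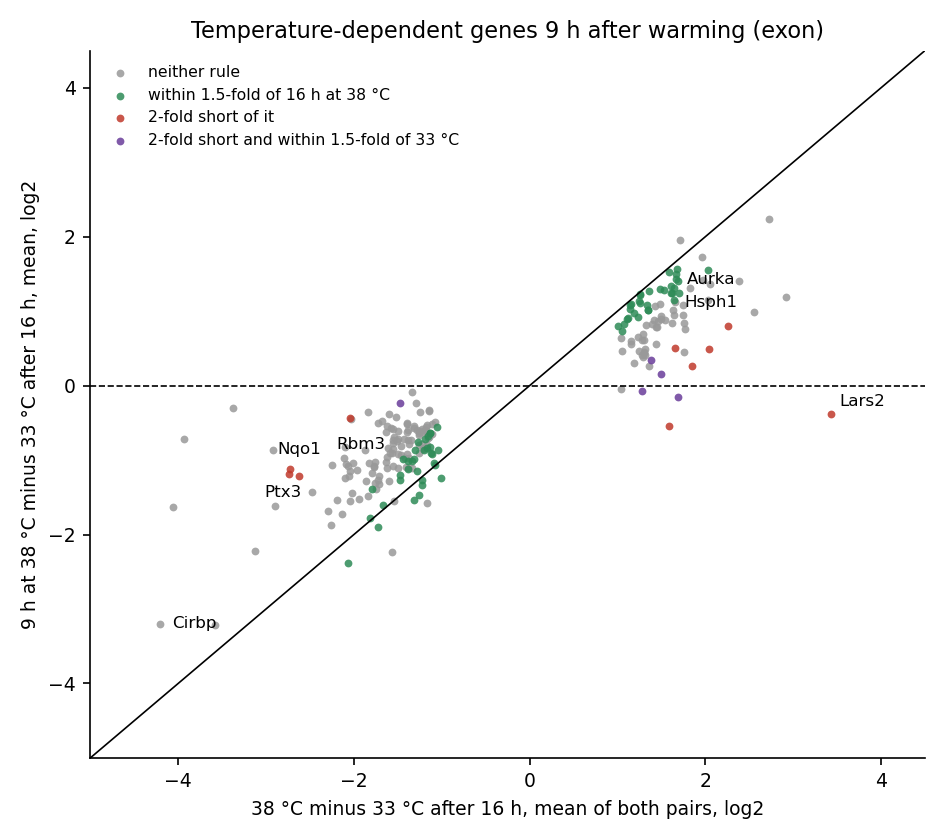
Mean log2 difference in exon RPKM between 38 and 33 °C at 16 h (x axis) and between 9 h after warming and 33 °C (y axis) for the 243 temperature genes, each a mean of both pairs. Genes on the solid line had the 16 h level of 38 °C at 9 h and genes on the dashed line had the 33 °C level. Most lie between the lines, and 65 are close to the solid line. The same 16 h columns at 38 °C chose the genes and give the x axis, which pulls points towards the dashed line. The same 16 h columns at 33 °C chose the genes and enter both axes, which pulls points towards the solid line.

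Cirbp (ENSMUSG00000045193, chr10:80165985-80172786, plus strand, GRCm38), the cold-inducible RNA-binding protein that the study is named for, had covered 76.0% of its log2 distance. Its exon level was 35.2 and 29.5 RPKM after 16 h at 33 °C, 3.30 and 3.54 RPKM after 9 h at 38 °C, and 1.33 and 2.04 RPKM after 16 h at 38 °C. Both 9 h columns were above both 16 h columns and far below both columns of 33 °C. The log2 difference between 9 h and 16 h was 1.25 and 0.77, a mean of 2.01-fold, which passed 2-fold in pair 2/5 only. Intron reads did not follow: there were 220 and 158 at 9 h against 142 and 205 at 16 h, groups that overlap. Exon reads per intron read were 1.53 and 1.71 at 9 h, 0.852 and 0.917 at 16 h, and 8.91 and 9.31 at 33 °C, so the 9 h ratio was above the 16 h ratio in both columns. The log2 ratio of exon to intron RPKM was higher at 9 h by 0.79 and 0.87, beside medians over all genes of 0.16 and 0.07. At 33 °C, where Cirbp was high, the 9 h level was below the 16 h level in both pairs (24.1 and 26.0 RPKM, log2 differences -0.55 and -0.18).

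Rbm3, the other cold-inducible RNA-binding protein, gave different answers in the 2 pairs. Its exon level was 42.9 and 16.2 RPKM at 9 h, 10.9 and 16.5 RPKM at 16 h and 64.4 and 45.9 RPKM at 33 °C. In pair 2/5 the 9 h column stood 1.97 log2 units above the 16 h column, close to the 33 °C level, and in pair 13/11 it was at the 16 h level (-0.03). Exon reads per intron read were higher at 9 h in both columns (14.3 and 9.96 against 4.21 and 6.24). Rbm3 overlaps Rbm3os on the other strand, and the sources used here do not say whether counting used strand. Over the 9 cold-inducible genes tested of 10 listed, the median log2 differences were 0.13 and -0.06, and 1 member was at least 1.3-fold higher in both pairs, beside 2.01% of all genes.

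**Figure D3:**
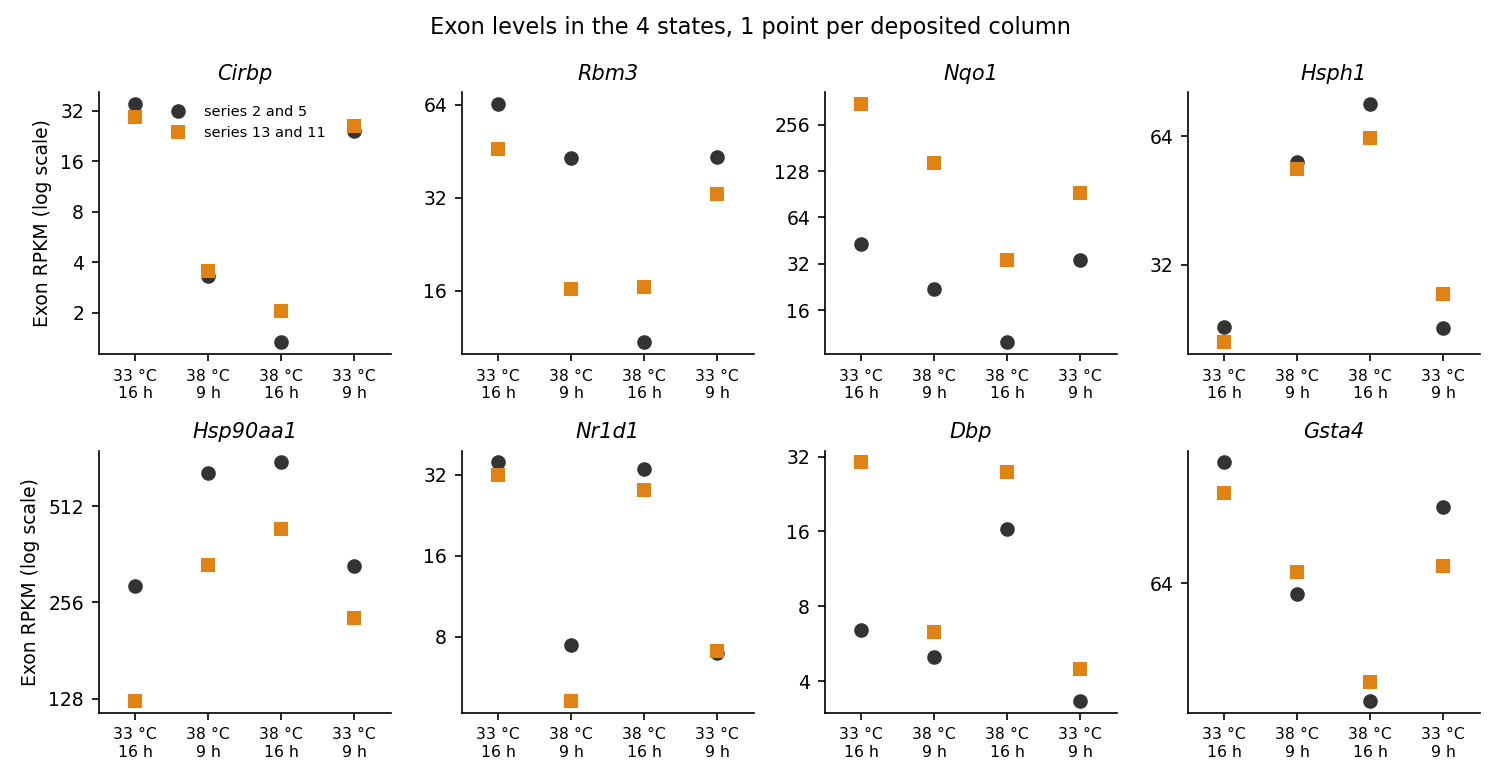
Exon RPKM on a log axis of Cirbp, Rbm3, Nqo1, Hsph1, Hsp90aa1, Nr1d1, Dbp and Gsta4 in 4 states (16 h at 33 °C, 9 h and 16 h at 38 °C, 9 h at 33 °C), 1 point per column and so 2 per state. Cirbp, Hsph1 and Hsp90aa1 at 9 h lie nearer to their 16 h level at 38 °C than to 33 °C, and Nr1d1 separates by time (4.63 to 7.44 RPKM in the 9 h columns, 28.1 to 35.5 in the 16 h columns) and not by temperature.

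Chaperone genes of the heat shock response were at or just under their 16 h level. Hsph1, which encodes the HSP110 chaperone and nucleotide exchange factor, was at 22.9 and 21.1 RPKM at 33 °C, 55.8 and 53.5 RPKM after 9 h at 38 °C and 76.1 and 63.2 RPKM after 16 h. The 9 h columns lay below both 16 h columns and above both 33 °C columns, and the log2 difference to 16 h was -0.45 and -0.24. Hsp90aa1, the inducible cytosolic HSP90, was at 649 and 336 RPKM at 9 h and 702 and 435 RPKM at 16 h (log2 differences -0.11 and -0.37), columns that overlap. Chordc1, an HSP90 cochaperone, had 21.1 and 12.8 RPKM against 24.8 and 11.4 RPKM. Of the 37 genes listed and tested, Ahsa2, Chordc1, Hsp90aa1 and Hsph1 passed 2-fold between temperatures, beside 2.38% of all genes. All 4 were among the 65 that had reached the 16 h level. None of the 37 was 1.3-fold apart in both pairs, where 4.27% of all genes were, so this count is near the background, and the list medians were 0.00 and -0.15, beside 0.02 and -0.04 for all genes. The list's summed level was 4840 and 3270 RPKM at 33 °C, 6840 and 5270 RPKM at 9 h and 7160 and 5850 RPKM at 16 h.

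The promoter of Hsph1 is printed because it holds 1 of the 2 heat shock element cores that were searched, TTCNNGAA and GAANNTTC, which read the same on both strands. It is the stretch just before the start of the gene (RefSeq, GRCm38.p6, chr5:149636316-149636565, minus strand, 5′ to 3′), with the core in capitals.
Hsph1: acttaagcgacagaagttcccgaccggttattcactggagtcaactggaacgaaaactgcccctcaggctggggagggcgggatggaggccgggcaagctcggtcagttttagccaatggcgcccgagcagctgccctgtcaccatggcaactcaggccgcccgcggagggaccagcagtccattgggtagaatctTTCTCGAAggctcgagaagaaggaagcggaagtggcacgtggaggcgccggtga
TTCNNGAA was in 7.17% of 32851 promoters and in 17.5% of the 40 promoters of the 30 matched genes of the heat shock list, and GAANNTTC in 6.69% of all and 8 of the 40. A match describes these letters and does not show a bound site.

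Other genes at their 16 h level came from both directions. Cela1, a serine protease gene that is higher in the cold, was at 3.90 and 5.86 RPKM at 33 °C, 0.564 and 1.22 RPKM at 9 h and 0.695 and 1.6 RPKM at 16 h, so it was down to the 38 °C level at 9 h. Cxcl5, a neutrophil chemokine, had 38.5 and 12.4 RPKM, then 9.06 and 3.65 RPKM, against 10.1 and 4.18 RPKM at 16 h. L3mbtl3, a reader of methylated lysine, was higher at 38 °C, with 0.866 and 0.865 RPKM at 33 °C, 2.67 and 2.84 RPKM at 9 h and 2.81 and 3.21 RPKM at 16 h. The log2 differences between 9 h and 16 h were -0.26 and -0.37 for Cela1, -0.15 and -0.19 for Cxcl5 and -0.07 and -0.17 for L3mbtl3, against -2.33 and -1.81, -1.92 and -1.55, and 1.59 and 1.78 between the temperatures. Cplx2, Gm15867, Nup210l and 9030617O03Rik (Dglucy in GENCODE), the remaining genes chosen by size together with Aurka below, were also within 1.5-fold.

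Among genes lower in the warmth, those 2-fold short of the 38 °C state included Nqo1, Scara3, Ptx3 and C3. Nqo1 (NAD(P)H quinone dehydrogenase, a target of the antioxidant factor NRF2) was at 42.7 and 350 RPKM at 33 °C, 21.8 and 145 RPKM at 9 h and 9.86 and 33.9 RPKM at 16 h. Each pair showed the same order, with log2 differences between 9 h and 16 h of 1.14 and 2.09, but the columns overlap because series 11 and 13 had several times the level of series 2 and 5. Scara3, a scavenger receptor that protects against oxidants, was at 8.94 and 15.1, then 3.4 and 7.23, and 1.36 and 2.35 RPKM at 16 h, with both 9 h columns above both 16 h columns. The pentraxin Ptx3 was at 10.7 and 31.2, then 5.70 and 11.2, and 2.75 and 2.56 RPKM at 16 h. C3, the central complement component, was low and varied, with 1.82 and 0.572 RPKM at 9 h and 0.506 and 0.127 RPKM at 16 h.

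Of the 5 genes still at the 33 °C level, 4 were higher at 38 °C after 16 h: 1700008I05Rik (Tcp11x2 in GENCODE), B130055M24Rik and the small RNAs Gm24978 and Gm22947, whose highest exon read counts in the 4 columns at 38 °C were 12 and 9. 1700008I05Rik had 1.47 and 0.188 RPKM at 33 °C, 1.08 and 0.212 RPKM at 9 h and 3.61 and 1.18 RPKM at 16 h. After 9 h at 33 °C, in the cooling course, it was above its 16 h level at 33 °C (log2 differences 1.48 and 2.75). Temperature and course cannot be told apart for it.

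NRF2 targets were compared as a list because of Nqo1. Of 21 tested, 13 were higher at 9 h in both pairs and 2 were lower, where 21.7% and 22.3% of all genes were. The medians were 0.17 and 0.29, 2 members, Nqo1 itself among them, were at least 1.3-fold higher in both pairs and none lower, beside 2.01% and 2.26% of all genes. Gsta4, a glutathione transferase, was at 118 and 101 RPKM at 33 °C, 60.6 and 67.7 RPKM at 9 h and 35.3 and 38.8 RPKM at 16 h. Its 3 states did not overlap, and 9 h lay about midway (49.3% of the log2 distance).

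Genes 2-fold higher at 9 h that did not pass 2-fold between the temperatures in both pairs were Timp3 and Pmvk. Timp3, an inhibitor of metalloproteinases, was at 71.2 and 139 RPKM at 9 h, 34.4 and 68.4 RPKM at 16 h and 68.7 and 174 RPKM at 33 °C. Between the temperatures at 16 h it missed the 2-fold rule narrowly (log2 differences -1.0 and -1.35). Its 9 h level was within 1.5-fold of the 33 °C level in both pairs (0.05 and -0.32). Between 9 h and 16 h at 38 °C it was just inside the 2-fold limit (log2 differences 1.05 and 1.02). Txnip, the thioredoxin-interacting protein, was just outside it (0.98 and 1.06). Pmvk, phosphomevalonate kinase of the cholesterol pathway, had 12.3 and 27.1 RPKM at 9 h and 5.83 and 8.67 RPKM at 16 h. Lars2, mitochondrial leucyl-tRNA synthetase, was the most lowered of the 24 at 0.872 and 1.09 RPKM, but its 16 h columns were 3.15 and 69.3 RPKM, so the size rests on series 11.

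The other lower genes were mostly low or noncoding. AC117663.1 had 15.1 and 6.03 RPKM at 9 h against 31.8 and 21.8 RPKM at 16 h. Dppa4, a gene of pluripotent cells, had 2.12 and 0.0206 RPKM against 4.82 and 0.392 RPKM, and Apoe, apolipoprotein E, 2.68 and 1.46 RPKM against 5.54 and 3.59 RPKM, just inside the limit. Gm13230 (-1.48 and -1.61) and Gm11508 (-1.08 and -1.25) are predicted genes, and Gm24873 and Gm22360 reached no more than 19 and 8 exon reads in any of the 4 columns at 38 °C. AL607127.1 and Gm14286 were also among the 17.

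Clock genes held the clearest difference that did not follow temperature. Nr1d1, which encodes the repressor REV-ERBα (chr11:98767932-98775333, minus strand), was at 7.44 and 4.63 RPKM after 9 h at 38 °C and 33.7 and 28.1 RPKM after 16 h. It was at 35.5 and 31.9 RPKM after 16 h at 33 °C and 6.98 and 7.09 RPKM after 9 h at 33 °C. The level thus differed by time, a mean of 5.18-fold at 38 °C (log2 differences -2.17 and -2.58) and log2 differences of -2.33 and -2.15 at 33 °C, and by only -0.08 and -0.18 between the temperatures at 16 h. Its intron reads moved with the exon reads: the intron log2 differences were -1.98 and -2.52, on 171 and 71 reads at 9 h against 606 and 499. Nr1d1 overlaps Thra on the other strand.

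Dbp, a PAR-bZIP activator of clock output, was at 5.01 and 6.34 RPKM at 9 h and 16.3 and 27.8 RPKM at 16 h (log2 differences -1.68 and -2.11), and overlaps Sphk2. Its columns at 33 °C were 6.45 and 30.3 RPKM at 16 h and 3.34 and 4.47 RPKM at 9 h, so the same difference was in both pairs there too (-0.93 and -2.73). Nr1d2, the second Rev-erb gene, had 6.83 and 4.59 RPKM against 13.5 and 10.8 RPKM at 16 h and missed the 2-fold limit in 1 pair (-0.98 and -1.22). Its introns passed it, with -1.26 and -1.56. Tef, another PAR-bZIP gene, had 16.4 and 15.6 RPKM against 21.8 and 24.8 RPKM, and Ciart (Gm129 in the files), a repressor of CLOCK and BMAL1, had 0.914 and 0.907 RPKM against 1.53 and 2.75 RPKM.

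Arntl, Nfil3 and Cry1 lay on the other side. Whether the levels of the Rev-erb genes had a part in this was not tested. Arntl, which encodes BMAL1, was at 2.26 and 6.17 RPKM at 9 h and 1.55 and 1.70 RPKM at 16 h (0.51 and 1.80). Nfil3, a repressor of PAR-bZIP targets, was at 6.75 and 9.47 RPKM against 4.11 and 3.31 RPKM (0.70 and 1.49), and Cry1 at 7.89 and 6.97 RPKM against 2.78 and 4.10 RPKM (1.47 and 0.75). In all 3 both 9 h columns were above both 16 h columns. At 33 °C the 9 h level was also above the 16 h level in both pairs for Nfil3 (1.47 and 1.19), while Arntl (0.03 and 1.51) and Cry1 (0.08 and 0.51) differed in pair 13/11 mainly. Per2 (1.2 and -0.33) and Per1 (0.36 and -0.60) had opposite signs in the 2 pairs, and Clock was level (0.07 and -0.02).

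Of the 16 clock genes tested, Nr1d1 and Dbp were at least 2-fold lower at 9 h in both pairs, beside 0.167% of all genes. At 1.3-fold, 3 were higher and 5 lower in both pairs at 38 °C, beside 2.01% and 2.26% of all genes, and 1 was higher and 2 lower at 33 °C, beside 3.19% and 6.16%. The list medians were 0.09 and -0.20.

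**Figure D4:**
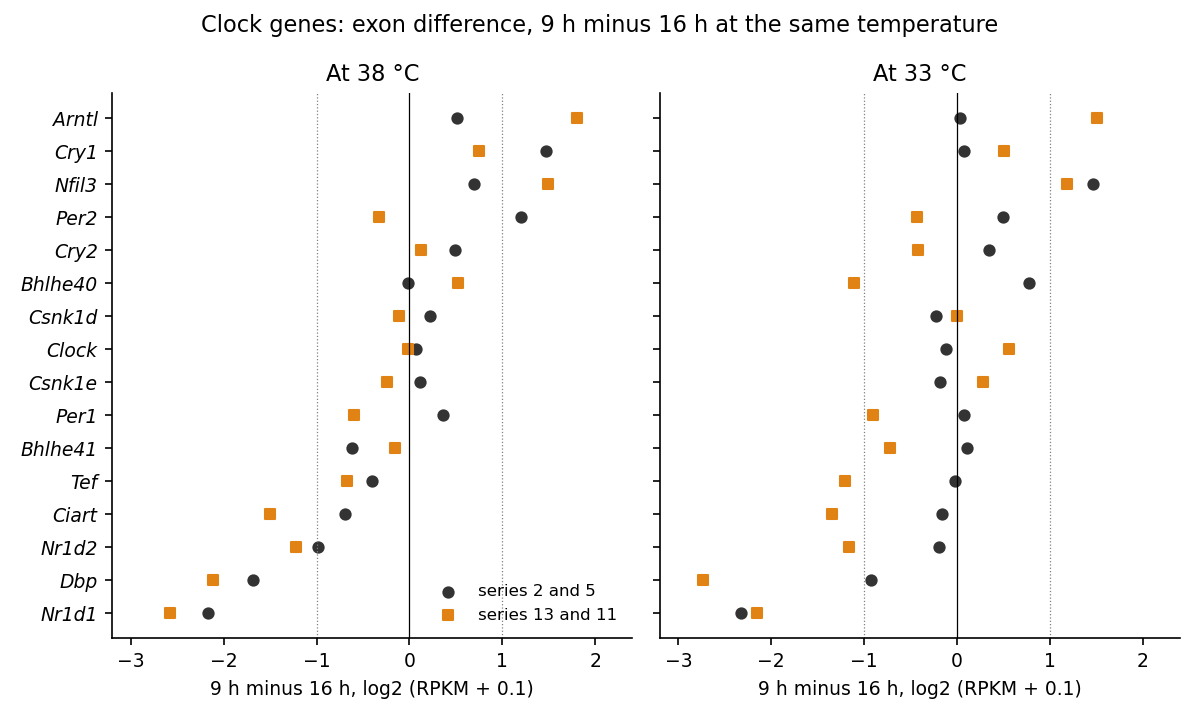
Log2 difference in exon RPKM between 9 h and 16 h for the 16 clock genes, at 38 °C and at 33 °C, 1 point per pair. Nr1d1 and Dbp are below -0.9 in all 4 comparisons, and Nfil3 is at 0.70 or above in all 4.

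Promoters of the 3 clock genes with an E-box and at least 1.3-fold in both pairs are printed, so that the element can be seen in genes that were lower (Tef, Ciart) and higher (Cry1) at 9 h. They are the stretches just before each start in RefSeq, GRCm38.p6: Tef at chr15:81802423-81802672 on the plus strand, Ciart at chr3:95882229-95882478 on the minus strand, and Cry1 at chr10:85185055-85185304 on the minus strand. Each is written 5′ to 3′ with the E-box CACGTG, which reads the same on both strands, in capitals.
Tef: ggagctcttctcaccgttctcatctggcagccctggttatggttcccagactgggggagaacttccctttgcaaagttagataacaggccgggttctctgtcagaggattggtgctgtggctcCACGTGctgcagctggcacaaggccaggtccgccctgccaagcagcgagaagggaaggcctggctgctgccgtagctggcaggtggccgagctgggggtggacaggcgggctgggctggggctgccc
Ciart: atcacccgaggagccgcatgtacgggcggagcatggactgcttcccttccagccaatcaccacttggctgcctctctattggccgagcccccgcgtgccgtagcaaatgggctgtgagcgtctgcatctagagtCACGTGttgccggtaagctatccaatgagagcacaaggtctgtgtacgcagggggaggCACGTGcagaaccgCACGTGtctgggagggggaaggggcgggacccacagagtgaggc
Cry1: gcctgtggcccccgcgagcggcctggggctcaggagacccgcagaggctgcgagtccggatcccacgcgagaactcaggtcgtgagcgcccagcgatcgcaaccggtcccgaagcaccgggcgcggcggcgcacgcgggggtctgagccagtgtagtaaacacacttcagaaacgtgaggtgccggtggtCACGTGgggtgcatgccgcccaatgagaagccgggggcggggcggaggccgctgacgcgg
CACGTG was in 6.02% of 32851 promoters and in 28.6% of the 21 promoters of the 13 matched clock genes. The window of Ciart holds 3 matches, and those of Tef and Cry1 1 each. The same letters were thus present in genes that differed in opposite directions.

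Replication-dependent histone genes, whose RNAs lack poly(A) tails and accumulate in S phase, were lower at 9 h than at 16 h as a group. Of 47 tested, 43 were lower in both pairs and none higher in both, where 22.3% of all genes were lower in both. The median log2 differences were -0.47 and -0.61, and 26 were at least 1.3-fold lower in both pairs, beside 2.26% of all genes. None passed 2-fold in both, beside 0.235% of all genes. Hist1h1c, a linker histone gene, had 120 and 137 RPKM at 9 h against 184 and 216 RPKM at 16 h, and Hist1h1e 116 and 123 RPKM against 175 and 208 RPKM. Hist2h3c2 (-0.74 and 0.86) and Hist1h2ba (0.28 and -1.72) differed in sign between pairs. Core histone genes share near-identical sequences, so reads may be split among them.

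Summed over the list, histone RNA was at 17100 and 8430 RPKM at 33 °C, 5120 and 5360 RPKM at 9 h and 6960 and 8080 RPKM at 16 h. In both pairs 9 h was the lowest of the 3 states, although 33 °C was far above 16 h at 38 °C only in pair 2/5. The 2 times differed less at 33 °C, with medians of -0.33 and -0.15 and 2 of 47 at least 1.3-fold lower in both pairs, beside 6.16% of all genes.

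Mitosis genes were higher at 38 °C and stood close to their 16 h level at 9 h. The 39 genes of G2 and mitosis summed to 943 and 1060 RPKM at 33 °C, 2110 and 1440 RPKM at 9 h and 2500 and 1600 RPKM at 16 h. Between 9 h and 16 h the medians were -0.25 and -0.15, with 25 lower in both pairs, beside 22.3% of all genes, and 1 of the 39 at least 1.3-fold lower, near the 2.26% of all genes. Aurka, the mitotic kinase Aurora A, was at 21.8 and 27.7 RPKM, then 76.3 and 44.8 RPKM, and 111 and 57.9 RPKM at 16 h. Kif20a, a kinesin of cytokinesis, had 114 and 65.6 RPKM at 9 h and 111 and 73.3 RPKM at 16 h.

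Targets of p53 were further from the 16 h level. Of 21 tested, 13 were lower at 9 h in both pairs, beside 22.3% of all genes. At least 1.3-fold lower in both were 7, beside 2.26% of all genes, with none higher by that fold. The medians were -0.45 and -0.26 at 38 °C and 0.17 and 0.10 at 33 °C. Eda2r, the ectodysplasin A2 receptor gene, was at 11 and 7.39 RPKM at 33 °C, 18.1 and 7.75 RPKM at 9 h and 32.8 and 15 RPKM at 16 h. Ccng1, cyclin G1, was at 61.5 and 85.2, then 163 and 109, and 248 and 179 RPKM. Mdm2, the ubiquitin ligase that restrains p53, had 21.5 and 16.3, then 29.4 and 17.6, and 44.2 and 27.1 RPKM at 16 h. Each lay between its 33 °C and 16 h levels within each pair, and introns of the list differed alike (medians -0.44 and -0.29). Fas, the death receptor, differed in sign (-0.80 and 1.34).

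Cholesterol synthesis genes were higher at 9 h in both pairs, by more in pair 13/11. Of 24 tested, 21 were higher in both and none lower in both, where 21.7% and 22.3% of all genes were. The medians were 0.24 and 0.90, and 5 were at least 1.3-fold higher in both, beside 2.01% of all genes. Summed over the list, the level was 538 and 1110 RPKM after 16 h at 33 °C, 722 and 1370 RPKM at 9 h and 622 and 726 RPKM at 16 h. In pair 13/11 the 33 °C column was thus already above the 16 h column at 38 °C. The median difference over 9 h of warming was 0.46 and 0.28. Hmgcs1, which makes the HMG-CoA used by the rate-limiting reductase, differed by 0.45 and 1.25, Mvd, the diphosphate decarboxylase, by 0.47 and 1.26, and Lss, lanosterol synthase, by 0.44 and 0.76. Their introns differed in the same direction (list medians 0.22 and 0.81). At 33 °C the list had opposite signs in the pairs (0.68 and -0.46). The 16 fatty acid synthesis genes had medians of 0.13 and 0.62, with 2 at least 1.3-fold higher in both, beside 2.01% of all genes.

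Several large groups differed in 1 pair only or in opposite directions. The 34 matrix genes had medians of -0.18 and 0.91, the 30 ribosome biogenesis genes 0.31 and -0.85 and the 35 G1/S genes 0.43 and -0.37. Cytosolic ribosomal proteins (83 genes, 0.25 and -0.32) and proteasome subunits (36 genes, 0.25 and -0.32) were like this too. No direction can be given for these. The extremes were small matrix proteins in pair 13/11: Mgp, matrix Gla protein, was at 2.54 and 11 RPKM at 9 h and 5.81 and 0.0715 RPKM at 16 h, and Aspn, asporin, at 0.282 and 12.5 RPKM against 0.292 and 0.0721 RPKM. Col11a1, a fibrillar collagen, had 0.428 and 10.5 RPKM against 0.712 and 1.07 RPKM. The prolactin-family gene Prl2c3 was at 77.7 and 2.11 RPKM at 9 h against 62.6 and 30.0 RPKM. These 4 were chosen after their values were seen. At 33 °C, by contrast, 28 of the 34 matrix genes were at least 1.3-fold lower at 9 h in both pairs (medians -0.93 and -1.18), beside 6.16% of all genes.

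**Figure D5:**
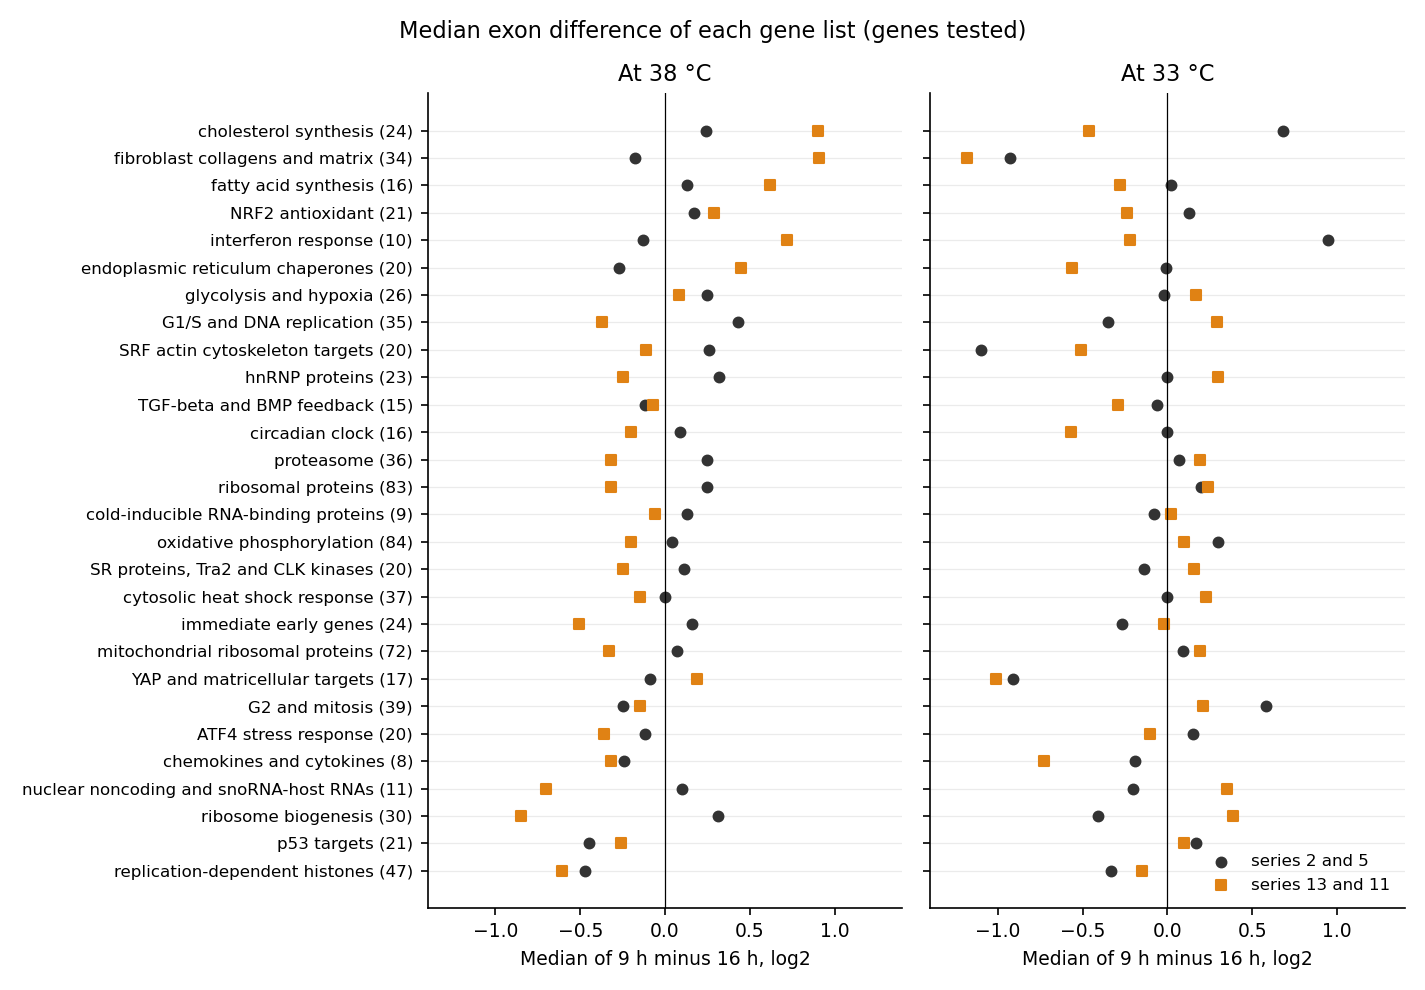
Median log2 difference in exon RPKM between 9 h and 16 h for 28 gene lists, at 38 °C and at 33 °C, 1 point per pair. At 38 °C the histone, p53 and chemokine (8 genes tested) medians are below -0.2 in both pairs. The cholesterol median is above 0.2 in both, while matrix, ribosome biogenesis and G1/S medians lie on opposite sides of 0.

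Introns, read here as precursor RNA, differed 2-fold in few genes, some of them called by exons too. Of 9367 genes tested 19 (0.203%) passed 2-fold in both pairs, 6 higher (0.0641%) and 13 lower (0.139%) at 9 h, and 7 of the 19 had fewer than 20 intron reads in all 4 columns. Acta1, for example, had 0 and 2 reads at 9 h and 8 and 12 at 16 h, Hspb2 3 and 2 against 11 and 7, Zfp688 2 and 6 against 8 and 15, Hoxd9 3 and 5 against 0 and 1, Gm11295 3 and 4 against 0 and 2, and Enho 1 and 3 against none. With the introns scaled by their own TMM factors the split was 9 higher and 7 lower. With more reads, Nr1d1, Nr1d2 and Dbp were lower, as was Gm10497 (65 and 45 reads against 126 and 120). Krt14, a keratin gene, was higher, with 110 and 203 reads at 9 h against 42 and 114. Agt, angiotensinogen, had 8 and 52 reads at 9 h against 0 and 5.

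1600002K03Rik had 136 and 170 intron reads at 9 h against 58 and 52 at 16 h (log2 differences 1.06 and 1.97). It lies just downstream of Cirbp on the same strand, at chr10:80172944-80175146. Its exon level had opposite signs in the pairs (-0.68 and 1.29). Of the 154 genes whose introns differed 2-fold between temperatures (1.64%), 125 (1.33% of all tested) were higher at 38 °C. After 9 h 58 had reached the 16 h level, 5 were 2-fold short, 1 of them at the 33 °C level, and 91 lay in between, with a median of 65.6% of the distance. The same 16 h columns at 38 °C chose and placed these genes, which pulls the 9 h level towards the 33 °C side. The 16 h columns at 33 °C also chose them and start the measured move, which pulls the share of the distance upwards.

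The ratio of exon to intron RPKM is a measure of mature over precursor RNA that splicing, transcription and decay all enter. Over all genes, the ratio after 9 h at 38 °C lay between the 16 h levels of the 2 temperatures. Its median log2 value per column was 2.82 and 2.70 at 9 h, 2.66 and 2.63 at 16 h, and 2.99 and 2.88 after 16 h at 33 °C. Both 9 h columns at 38 °C were thus above both 16 h columns at 38 °C and below both 16 h columns at 33 °C. The median difference between 9 h and 16 h was 0.16 and 0.07 (log2), against -0.32 and -0.25 between the temperatures. Intron reads made up 33.8% and 37.8% of all reads at 9 h, 37.8% and 39.0% at 16 h, and 32.4% and 34.5% after 16 h at 33 °C. After 9 h at 33 °C they made up 35.5% and 40.1%.

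Single genes crossed 2-fold in the ratio rarely, 14 of 9367 (0.149%), 8 higher (0.0854%) and 6 lower (0.0641%), or 5 and 9 with the ratio centred on the median of all genes, and 8 of the 14 had fewer than 20 intron reads in all 4 columns. Cdsn, corneodesmosin, had 1 and 10 intron reads at 9 h against 5 and 25, and Spin2 0 and 1 against 5 and 2. Tlr6, a toll-like receptor gene, had 35 and 92 against 18 and 21, with ratio differences of -1.37 and -1.11. Of 179 genes whose ratio differed 2-fold between temperatures (1.91%), 168 (1.79% of all tested) were lower at 38 °C. By 9 h 92 of the 179 had reached the 16 h ratio, 4 were 2-fold short, 2 of them at the 33 °C ratio, none was 2-fold past the 16 h ratio and 83 lay in between, with a median of 66.4% of the distance. The shared columns pull this share both ways as for exons, and hold down the count past the 16 h ratio. Neither introns nor ratios were read across pairs. Cirbp had covered 74.8% of its ratio distance and Rbm3 51.9%.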

How the data were processed

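Paired-end, strand-specific libraries of DNase-treated, rRNA-depleted total RNA were sequenced, per the labels' protocols. Per the submitters' processing notes, STAR and bedtools were used with the mm10 build, without versions. How strand and shared reads were treated in counting, and with which annotation, the sources used here do not say. Although the tables are named for RPKM, the deposited values are estimated counts of exon and intron reads (38087 genes): column totals differ, and of the exon values over 0, 22.9% lie within 1e-06 of a whole number. The design had assumed RPKM.

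Counts were rounded. RPKM was computed from exon and intron lengths of GENCODE M21 (36308 genes matched, 95.3%), with TMM factors of exon counts in edgeR 4.0.16 (R 4.3.3) for both kinds. Differences are of log2(RPKM + 0.1) for exons and log2(RPKM + 0.01) for introns, which understates changes of low genes. Genes needed a mean exon RPKM of 1.0 over the columns used, and, where introns entered, a mean intron RPKM of 0.05 too. The 8 columns used are both columns of the 4 samples named. Tables were scaled together here, but levels set across the 2 deposited tables also carry any difference in how they were made.

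With 1 sample per group there is no residual variation, so no test was run. A gene was called at 2-fold in the same direction in both pairs, and placed as reached within 1.5-fold. Lists are described by medians and by counts at 1.3-fold, a fold chosen after the data were seen. Named genes are Cirbp, Rbm3, the 10 called exon genes with the largest mean difference in each direction, the 5 for introns and for ratios, the 8 per position class with the largest temperature difference (for genes short, the largest distance), and up to 4 called genes per list. The other called genes, list members under 2-fold, Col11a1, Mgp, Aspn, Prl2c3 and genes near the limits were added after their values were seen. The members and lists were chosen with earlier results of these data known. Some genes that meet these rules are not reported here. Scripts were tested on simulated data. Alternatives are in the closing section, including DESeq2 1.42.0 size factors. Python 3.11.15, numpy 2.4.6, pandas 2.3.3 and matplotlib 3.10.9 were used.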

Additional observations from a re-analysis of the deposited data

Results flagged for a closer look

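C3, 1700008I05Rik, Dppa4 and Gm11508 were at least 2-fold apart between 9 h and 16 h in both pairs at both temperatures, but in opposite directions. The difference between the temperatures was not tested. At 38 °C the difference is the warming minus the cooling course, and at 33 °C the cooling minus the warming course. A constant offset between the courses would also give opposite signs, so time and course cannot be told apart for these genes. Mean log2 differences (9 h minus 16 h) at 38 °C and at 33 °C were 1.61 and -2.43 for C3, -1.85 and 2.11 for 1700008I05Rik, -1.59 and 1.42 for Dppa4, and -1.16 and 1.25 for Gm11508. All 4 were among the 15 genes 2-fold short of their 16 h level at 38 °C. C3 was at 0.268 and 0.118 RPKM after 9 h at 33 °C and 4.40 and 0.419 RPKM after 16 h at 33 °C. Dppa4, a gene of pluripotent cells, was at 2.12 and 0.0206 RPKM after 9 h at 38 °C and 4.82 and 0.392 RPKM after 16 h, so its series differ far more than its times.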

How the results depend on the processing

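No paired analysis was possible because each group has 1 sample and the series numbers differ between the courses; all comparisons were differences within the 2 pairs of columns. With DESeq2 size factors or total scaling the counts below stayed within 1.5 times the reported ones, although splits into higher and lower genes moved with total scaling (temperature genes to 123 and 113), and the 24 exon genes shared 24 and 22 with those calls. The counts below are given in the order larger pseudocounts (1 and 0.1), no filter on low values, mean exon RPKM of at least 5, pair 2/5 alone and pair 13/11 alone. Exon genes 2-fold apart at 38 °C (24) became 8, 99, 10, 157 and 527, intron genes (19) 10, 177, 7, 134 and 401, and ratio genes (14) 5, 207, 3, 72 and 65. Temperature genes (243) became 116, 540, 116, 1075 and 824. Of these, genes that had reached (65) became 36, 147, 36, 712 and 223, genes 2-fold short (15) 2, 39, 5, 87 and 345, genes at the 33 °C level (5) 0, 23, 0, 54 and 294, and genes past the 16 h level were 8 and 2 by single pair. At 33 °C, 9 h against 16 h (110) became 55, 254, 54, 515 and 387. With both columns of a sample summed, the counts were 105 exon, 93 intron, 30 ratio, 625 temperature, 369 reached, 76 short, 53 kept, 2 past and 244 at 33 °C. With crossed pairs they were 14 exon, 8 short, 2 kept, 1 past and 66 at 33 °C. Without genes that overlap another gene they were 13 exon, 11 intron, 118 temperature, 34 reached, 8 short and 52 at 33 °C, and with protein-coding genes only (added after seeing the data) 14 exon. For genes chosen in pair 2/5 and read in 13/11 (1075) there were 702 reached, 89 short, 56 kept and 58 past, and for the reverse choice (824) 618 reached, 38 short, 20 kept and 31 past. Lars2 alone passed 2-fold in every setting. Nr1d1 and Dbp dropped out only without overlapping genes, Nqo1 only with crossed pairs, while C3 was lost in 6 settings. Fewer than 20 intron reads in all 4 columns lay behind 7 of the 19 intron and 8 of the 14 ratio genes.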
